A study of Mus musculus with 4 samples.

Results

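The genes described here encode the enzymes that bring pyruvate into the tricarboxylic acid (TCA) cycle, the enzymes of the cycle, and those that break down branched-chain amino acids and propionyl-CoA. They were taken from a list of 34 genes by gene symbol, with older symbols matched by gene ID, and each was read from its probe set with the highest mean over all arrays. Of the 34, 31 were on the array among 8252 named genes, and 29 lay above the filter on low values. Mut was matched under its current symbol Mmut, and Pdhx, Pcca and Aldh6a1 had no probe set under this rule. Expression was measured in soleus muscle, a slow-twitch postural muscle of the calf, from mice labelled HSL-null and Wildtype. HSL is hormone-sensitive lipase, an enzyme that releases fatty acids from stored fat and is encoded by Lipe. Each genotype was 1 pool of muscle from 5 female mice aged 6 months, and that pool was hybridised to 2 arrays. The labels name no strain, no allele and no treatment.

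Pyruvate from glycolysis enters mitochondria and is converted to acetyl-CoA by the pyruvate dehydrogenase complex, and the cycle oxidises this acetyl group while it reduces the carriers that feed the respiratory chain. Fatty acids supply acetyl-CoA to the same cycle, so that it is the shared end of fat and carbohydrate oxidation in slow, mitochondria-rich muscle. Leucine, isoleucine and valine are broken down to a large extent in muscle: a transaminase and then the branched-chain ketoacid dehydrogenase complex act on all of them, and the later steps give acetyl-CoA, acetoacetate or propionyl-CoA. Propionyl-CoA is carried on to succinyl-CoA, a cycle intermediate.

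Values are linear intensities that were scaled before deposit, and differences are HSL-null minus Wildtype on the log2 scale. With 1 pool per genotype there was no test across animals, so that errors are SDs or standard errors of duplicate arrays and no p-value is given. A gene was called higher or lower without overlap when both HSL-null arrays lay on the same side of both Wildtype arrays. It was called separated when, in addition, the smallest of the 4 differences between arrays was at least 1.5-fold. The probe sets above the filter numbered 6217, and each array's highest intensity was from 5646 to 6183. Slow-fibre markers such as Myh7 (5201 in HSL-null and 5122 in Wildtype) were bright on the arrays. Some fast-fibre markers, such as Atp2a1 (5152 in HSL-null and 4969 in Wildtype), were bright too, so that brightness alone does not tell the kind of muscle. Lipe measured 16.2 and 19.4 on the HSL-null arrays, against 71.4 and 70.2 on the Wildtype arrays. Beta-actin control probe sets, whose signal at the 3′ end over that at the 5′ end gauges RNA quality, gave 0.816 and 0.823 on the HSL-null arrays, against 0.688 and 0.706 on the Wildtype arrays. Gapdh gave 0.922 and 0.912 on the HSL-null arrays, against 0.955 and 0.927 on the Wildtype arrays.

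Promoter sequences are shown for Sucla2, which had the largest difference among the pathway genes, and for Dld, whose protein serves several complexes of these pathways. These are the genes among those higher in HSL-null whose promoter windows held the letters GCGCANGCGC, the motif of the respiratory-gene regulator NRF1 (on the opposite strand in Sucla2, on the printed strand in Dld). The windows are from RefSeq on build GRCm38.p6 and run from 250 bases before to 50 bases after the gene's start. The Sucla2 window is chr14:73552536-73552835 on the + strand, and the Dld window is chr12:31351422-31351721 on the - strand. Capitals mark the match, which begins at base 234 of the Sucla2 window and at base 290 of the Dld window.
Sucla2: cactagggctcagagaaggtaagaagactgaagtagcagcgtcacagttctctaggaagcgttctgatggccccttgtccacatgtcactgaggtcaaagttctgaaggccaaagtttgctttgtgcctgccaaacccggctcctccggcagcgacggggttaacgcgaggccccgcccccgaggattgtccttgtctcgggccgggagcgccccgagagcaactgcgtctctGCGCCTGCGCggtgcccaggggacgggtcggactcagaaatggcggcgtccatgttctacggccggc
Dld: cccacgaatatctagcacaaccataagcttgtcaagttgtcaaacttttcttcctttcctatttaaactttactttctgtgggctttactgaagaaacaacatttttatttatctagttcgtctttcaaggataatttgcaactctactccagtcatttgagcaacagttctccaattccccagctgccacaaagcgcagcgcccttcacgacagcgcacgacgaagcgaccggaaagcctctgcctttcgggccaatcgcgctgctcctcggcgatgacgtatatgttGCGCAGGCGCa
Of the 26 pathway genes above the filter with a window, 4 held this motif on either strand (Sucla2, Dld, Hibadh and Pccb), against 5.19% of 27025 genes with a window. Of the 12 genes higher without overlap that had a window, 2 held it. Other motifs were searched on both strands in the same windows. AAGGTCA, the site of oestrogen-related receptors, was found in 1 of the 26 (Ogdh), against 5.38% of all genes. CCGGAAG, the core of ETS factors such as GABP, was found in 3 (Dlst, Glud1 and Idh3g), against 9.93%, and the PPAR repeat AGGTCANAGGTCA in 0, against 0.0481%. TGACGTCA, the CREB site, was found in 2, against 2.03%, and the E-box CACGTG in 2, against 8.09%. The NF-Y letters CCAAT were found in 14, against 41.1%, and the SP1 letters GGGCGG in 16, against 38.2%. AAGGTCA can overlap the PPAR repeat. These matches describe letters in the windows and were chosen after the expression values were known.

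Across the pathways, differences were small and lay mostly above 0 in HSL-null, in 22 of the 29 genes above the filter. Over all probe sets above the filter, 3080 of 6217 lay above 0. Among those with a mean of at least 1000, 248 of 358 did, as did 10 of the 11 pathway genes in that range. Of the 29 pathway genes, 13 were higher without overlap, against 19.5% of all probe sets, and 3 were lower, against 21.1%. The 13 make up 44.8% of the 29 and the 3 make up 10.3%. None of the 29 was separated, higher or lower, where 0.225% of all probe sets were separated in each direction. A single gene, Sucla2, was higher without overlap by at least 1.2-fold in the mean, where 5.76% of all probe sets were, and 0 were lower by as much, where 5.98% were. The median difference was 0.064, against -0.0021 over all probe sets, and it lay between 0.026 and 0.078 over the 4 pairs of an HSL-null and a Wildtype array. In a bulk sample, fewer cells of a type and less RNA per cell cannot be told apart.

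The count of higher genes can only stay or rise when an array is left out, because fewer arrays must then not overlap. It was 21 higher without Wildtype array 1, when 35.4% of all probe sets were higher, and between 14 and 17 when any other array was left out. The count of lower genes was 7 when Wildtype array 2 was left out, 6 when HSL-null array 1 was and 5 when Wildtype array 1 was, or 24.1%, 20.7% and 17.2% of the 29. In these settings 36.5%, 35.3% and 35.8% of all probe sets were lower. The median was 0.028 without Wildtype array 2 and 0.035 without the first HSL-null array.

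**Figure D1:**
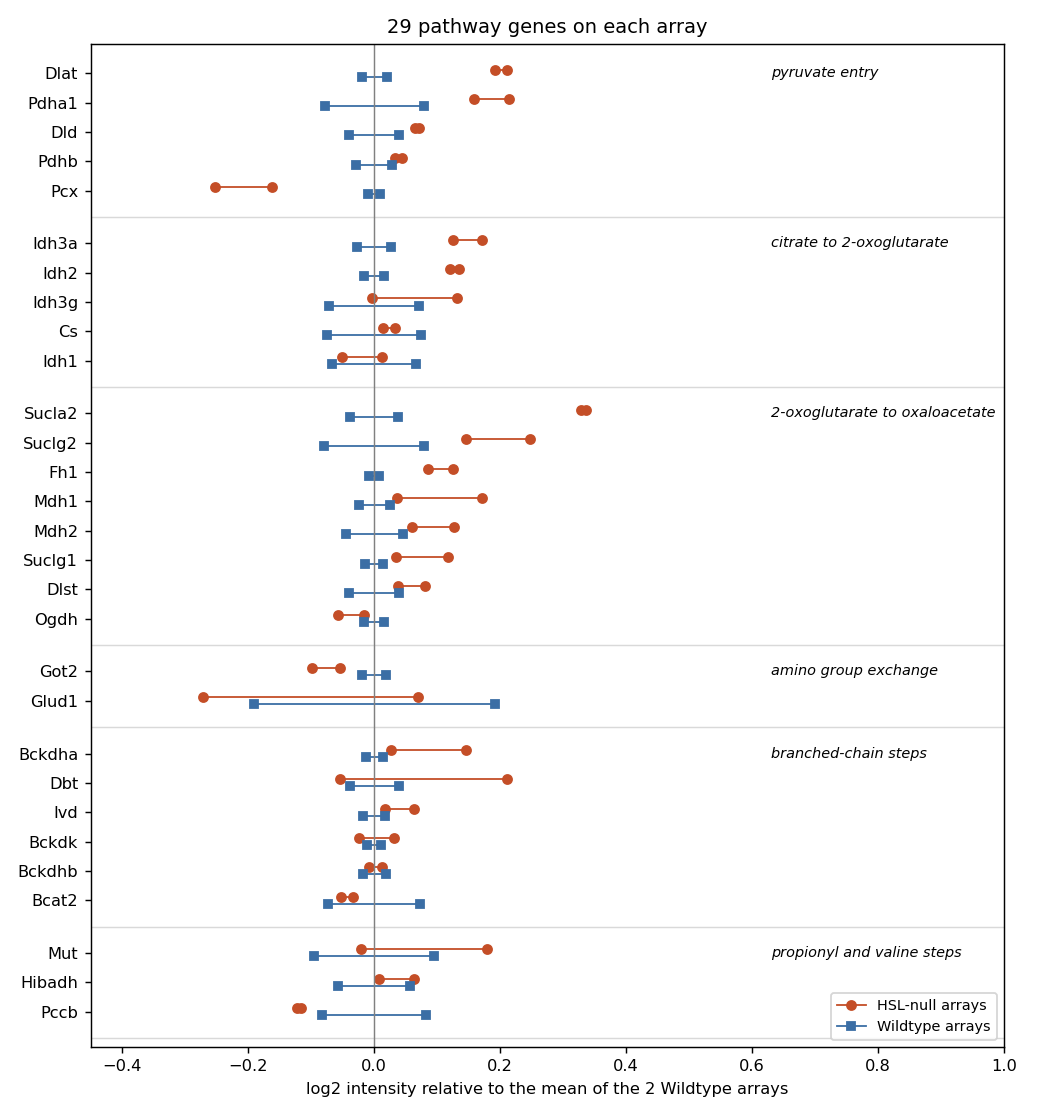
Log2 intensity (horizontal axis) of the 29 pathway genes above the filter, grouped by reaction, with each array drawn relative to the mean of the 2 Wildtype arrays. Circles are the HSL-null arrays and squares the Wildtype arrays of 1 pool each. Most pyruvate and cycle genes have both circles to the right of both squares, led by Sucla2 at 0.33, while most branched-chain genes overlap.

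Bright probe sets as a whole also lay somewhat higher in HSL-null, so the genes were set against probe sets of like level. Among the 358 probe sets with a mean of at least 1000, 31.3% were higher without overlap and 14% lower, and their median difference was 0.034. The 11 pathway genes in this range are all pyruvate or cycle genes. Of these, 8 were higher, 0 were lower, and the median was 0.076. Among the 5859 dimmer probe sets, 18.8% were higher and 21.6% lower, with a median of -0.0063. The 7 dimmer pyruvate and cycle genes gave 4 higher and 1 lower, with a median of 0.10. The 11 amino acid and propionyl genes, which are all in this dimmer range, gave 1 higher and 2 lower, with a median of 0.0034. The difference between these 2 sets of genes was not tested.

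**Figure D2:**
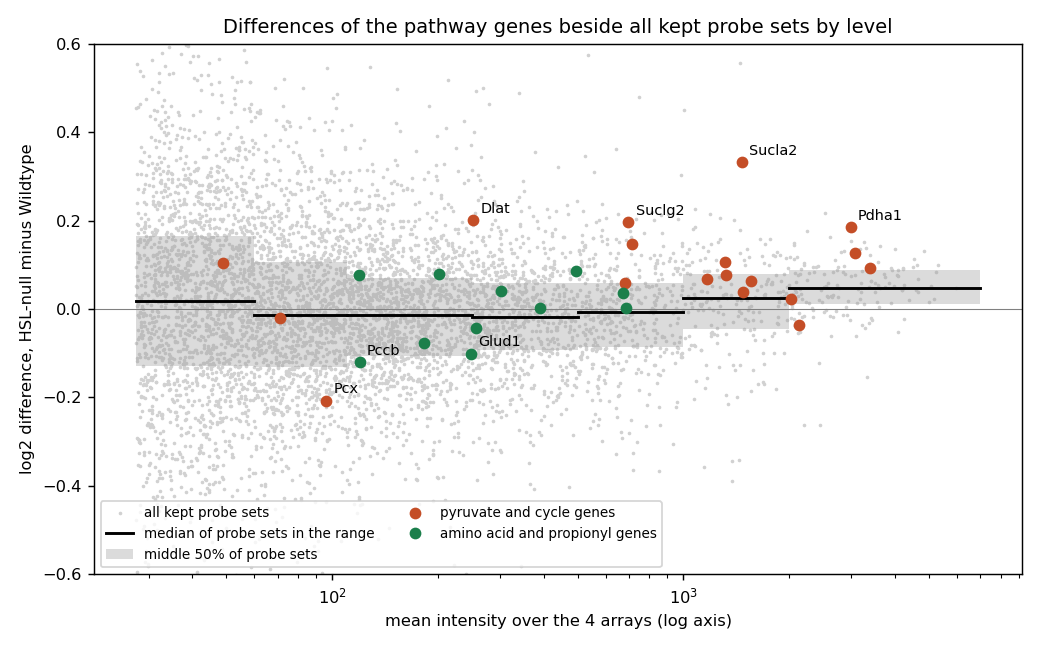
Log2 difference (HSL-null minus Wildtype, vertical axis) against mean intensity over the 4 arrays (log axis). Grey points are all 6217 probe sets above the filter, of which 92 lie beyond the axis limits of 0.6 in either direction, black lines are their medians within ranges of intensity and grey bands their middle 50%. Sucla2, Dlat, Suclg2, Pdha1, Idh2, Idh3a, Fh1, Mdh2, Dlst, Bckdha, Dbt and Mut lie above the band at their level, and Pcx, Pccb and Ogdh lie below it.

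In pyruvate entry, all 4 measured subunits of the pyruvate dehydrogenase complex were higher without overlap in HSL-null with the values as deposited. Pyruvate carboxylase was lower. Over all probe sets 19.5% were higher and 21.1% lower. Pdha1, Pdhb and Dld have means of at least 1000, where these shares were 31.3% and 14%. The nearest arrays of different genotype were only 1.003-fold apart for Pdhb and 1.02-fold for Dld. With quantile normalization Pdhb turned sign, and Pdha1 and Dld overlapped. Dlat encodes the acetyl-transferring core of the complex. It measured 268 and 271 on the HSL-null arrays, against 237.5 and 231 on the Wildtype arrays. Its mean was 269 ± 2.55 in HSL-null and 234 ± 4.60 in Wildtype (SD, n = 2 arrays each), 1.15-fold higher (log2 difference 0.20 ± 0.022, SE of duplicates). The gap between the genotypes was several times the spread of the duplicates, and it kept its direction without overlap under every alternative that kept it. A second Dlat probe set, below the filter, overlapped and gives no check (4.7 and 14.6 in HSL-null, 10.1 and 14.4 in Wildtype). Pdha1 encodes the catalytic alpha subunit that pyruvate dehydrogenase kinases phosphorylate. It measured 3244 and 3119 on the HSL-null arrays, against 2648 and 2952 on the Wildtype arrays, 1.14-fold higher (0.19 ± 0.083). The Wildtype duplicates lay farther apart than the nearest arrays of different genotype, and with quantile normalization the groups overlapped.

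Dld, the lipoamide dehydrogenase shared by the pyruvate, 2-oxoglutarate and branched-chain complexes, measured 1189.9 and 1194 on the HSL-null arrays, against 1169 and 1106 on the Wildtype arrays. The difference was 0.068 ± 0.040, and the groups overlapped with quantile normalization. Pdhb, the beta subunit of the same catalytic component as Pdha1, measured 1502 and 1490.1 in HSL-null, against 1485 and 1428 in Wildtype. Its difference of 0.039 ± 0.029 was little above its standard error, the groups overlapped with cyclic loess, and quantile normalization turned the sign (-0.00040).

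Pcx encodes pyruvate carboxylase, which makes oxaloacetate from pyruvate and so refills the cycle. Its brightest probe set is a control probe set against the 3′ end of the transcript. It measured 92 and 86.4 on the HSL-null arrays, against 102 and 104 on the Wildtype arrays, 1.15-fold lower in HSL-null (log2 difference -0.21 ± 0.046). The other probe sets of Pcx were dim and did not run the same way. A control probe set in the middle of the transcript was lower without overlap (28.1 and 27.9 in HSL-null, against 30.6 and 32 in Wildtype). The one at the 5′ end, below the filter, was higher (28 and 36.1 in HSL-null, against 24.1 and 8.3 in Wildtype). The brightest probe set that is not a control overlapped, at 15.7 and 35.4 in HSL-null and 37.1 and 30.7 in Wildtype. Below the filter, a further probe set that is not a control was lower without overlap (17.7 and 11.2 in HSL-null, against 19.7 and 19.3 in Wildtype), and a control probe set overlapped. With control probe sets left out, an alternative chosen after the data were seen, the overlapping non-control probe set stands for Pcx and the count of lower genes is 2.

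The median of the 5 pyruvate entry genes was 0.068. It was 0.11 without Wildtype array 1 and 0.028 without Wildtype array 2.

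**Figure D3:**
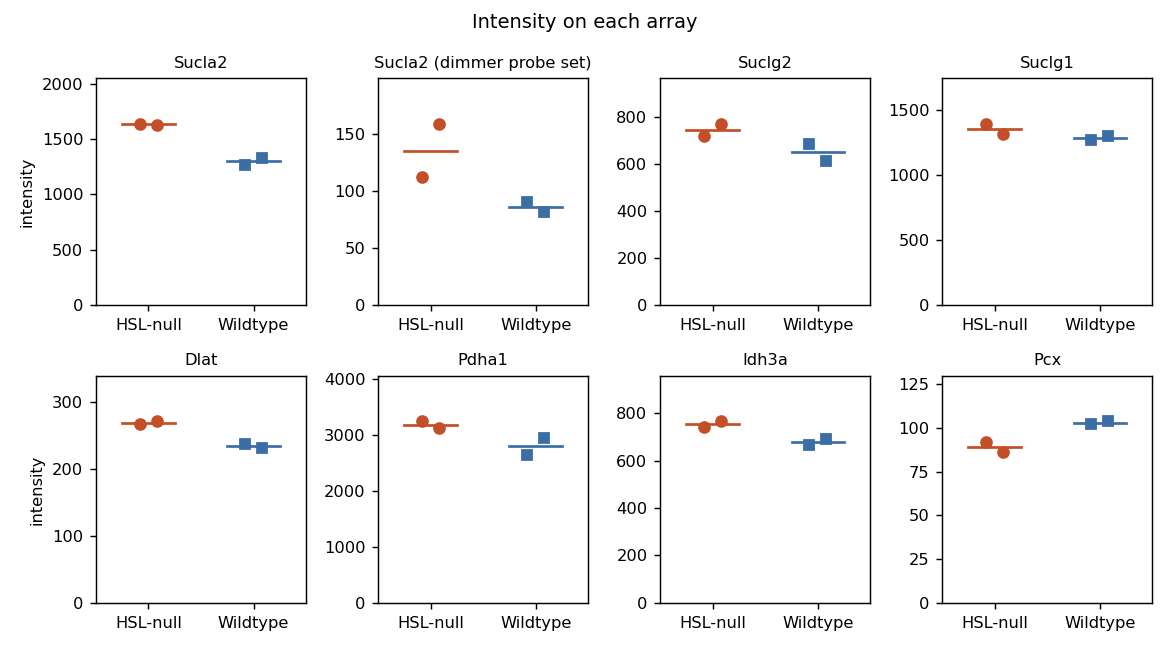
Intensity (vertical axis from 0) on each array for 7 genes, with Sucla2 on both of its probe sets. Circles are HSL-null arrays, squares are Wildtype arrays and lines are means of 2 arrays. Both Sucla2 probe sets, Suclg2, Suclg1, Dlat, Pdha1 and Idh3a are higher in HSL-null without overlap, and Pcx is lower.

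From citrate to 2-oxoglutarate, the isocitrate dehydrogenases Idh3a and Idh2 were higher in HSL-null, and citrate synthase showed no gap between the genotypes. Idh3a, the catalytic subunit of the NAD-dependent enzyme of the cycle, measured 741 and 765 on the HSL-null arrays, against 667 and 692 on the Wildtype arrays. It was 1.11-fold higher (0.15 ± 0.036), without overlap under every alternative that kept it. Idh2, the NADP-dependent mitochondrial isocitrate dehydrogenase, measured 3202 and 3233 in HSL-null, against 2978 and 2914 in Wildtype. Its difference of 0.13 ± 0.017 had the smallest standard error in the list, but quantile normalization lowered it to 0.053. Cs, the citrate synthase often used as a gauge of mitochondrial content, measured 2059 and 2032 in HSL-null, against 2119 and 1910 in Wildtype. Both HSL-null values lay between the Wildtype duplicates, and the difference was 0.024 ± 0.075.

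Idh3g, a regulatory subunit of the NAD-dependent enzyme, measured 1665 and 1517 in HSL-null and 1598 and 1447 in Wildtype, with overlap. Idh1, the cytosolic NADP-dependent enzyme, measured 72.1 and 69 in HSL-null and 74.9 and 68.3 in Wildtype, also with overlap. Idh3b, the other regulatory subunit, was below the floor of 5.7 on every array, so that its values have no order. The median of the 5 genes above the filter was 0.064. It was -0.0076 when Wildtype array 2 was left out and 0.014 when HSL-null array 1 was, and 0.12 when either of the other arrays was.

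The steps from 2-oxoglutarate to oxaloacetate held Sucla2, the gene with the largest difference in the list. Of 8 genes, 6 were higher without overlap, 0 were lower, and the median was 0.098 (between 0.084 and 0.12 when single arrays were left out). Over all probe sets 19.5% were higher, and 31.3% of those with a mean of at least 1000. All 3 subunits of succinyl-CoA ligase, the enzyme that makes ATP or GTP in the cycle, were among the 6. Sucla2 encodes the beta subunit of the ATP-forming enzyme. It measured 1638 and 1629.5 on the HSL-null arrays, against 1264 and 1333 on the Wildtype arrays. Its mean was 1634 ± 5.80 in HSL-null and 1298 ± 48.7 in Wildtype (SD, n = 2 arrays each), 1.26-fold higher (0.33 ± 0.038), and the smallest of the 4 array differences was 1.22-fold. Among all 358 probe sets with a mean of at least 1000, 5 were higher by at least 1.2-fold without overlap.

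A second Sucla2 probe set, which is dimmer, was also higher without overlap. It measured 112 and 159 on the HSL-null arrays, against 90.3 and 81.7 on the Wildtype arrays (0.64 ± 0.26). The HSL-null duplicates lay far apart on it. The suffixes of both Sucla2 probe sets (_f and _r) mark probes that may be shared with related sequences, so that the values are uncertain to that extent. Suclg2, the beta subunit of the GTP-forming enzyme, measured 718 and 771 in HSL-null, against 686 and 614 in Wildtype (0.20 ± 0.094). Suclg1, the alpha subunit common to both forms, measured 1393 and 1316 in HSL-null, against 1271 and 1297 in Wildtype. Its difference of 0.076 ± 0.044 was smaller than those of both beta subunits, and the difference between subunits was not tested.

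Fh1 encodes fumarase, which hydrates fumarate to malate. It measured 1384 and 1346 on the HSL-null arrays, against 1275 and 1262 on the Wildtype arrays (0.11 ± 0.021). Its groups did not overlap with median centring, quantile normalization or cyclic loess either. Mdh2, the mitochondrial malate dehydrogenase that regenerates oxaloacetate, measured 3579 and 3415 in HSL-null, against 3381 and 3177 in Wildtype. Its groups did not overlap, but the nearest arrays were 0.014 apart on the log2 scale, and the difference of 0.093 ± 0.056 was 0.035 with quantile normalization. Mdh1, its cytosolic counterpart in the malate-aspartate shuttle, measured 48.2 and 52.9 in HSL-null, against 46.2 and 47.8 in Wildtype. It was higher by 0.10 ± 0.071 and overlapped with quantile normalization. The nearest arrays of different genotype were 0.012 apart on the log2 scale, and the HSL-null duplicates lay farther apart than that.

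The 2 measured components of the 2-oxoglutarate dehydrogenase complex other than Dld overlapped. Ogdh, its first and rate-setting component, measured 2130.4 and 2069.9 in HSL-null, against 2129.7 and 2177 in Wildtype (-0.036 ± 0.026). With quantile normalization and cyclic loess it was lower without overlap (-0.094 with the first). Dlst, the succinyl-transferring core, measured 685 and 706 in HSL-null, against 686 and 649 in Wildtype. Its difference was 0.060 ± 0.045 on the brighter probe set and 0.017 ± 0.054 on the other.

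**Figure D4:**
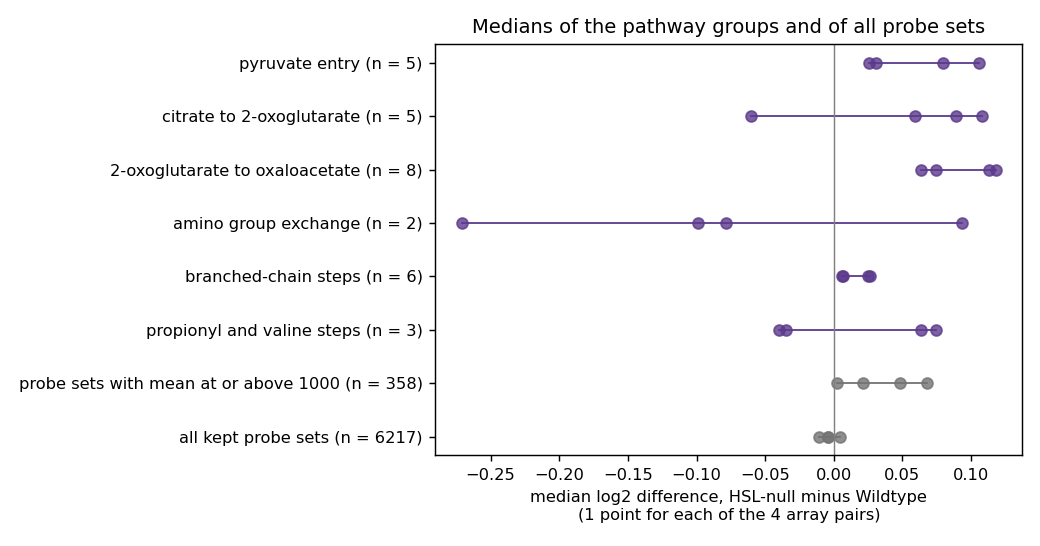
Median log2 difference (HSL-null minus Wildtype, horizontal axis) of each group of reactions, with 1 point for each of the 4 pairs of an HSL-null and a Wildtype array. Grey points are the probe sets with a mean of at least 1000 and all 6217 probe sets above the filter. The group from 2-oxoglutarate to oxaloacetate lies between 0.064 and 0.12, and the branched-chain group between 0.0063 and 0.026.

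The enzymes that move amino groups into and out of the cycle gave little signal to compare. Got2, the mitochondrial aspartate aminotransferase of the malate-aspartate shuttle, measured 180 and 175 on the HSL-null arrays, against 189 and 184 on the Wildtype arrays. It was lower without overlap by a small amount (-0.077 ± 0.029). This probe set also carries the suffix _r, so that its values are uncertain in the same way as those of Sucla2. The other Got2 probe set was below the floor on 3 arrays (1.2 and 3.7 in HSL-null, 4.8 and 7.1 in Wildtype) and gives no check. Glud1, the glutamate dehydrogenase, measured 268 and 211 in HSL-null and 223.5 and 291 in Wildtype, with overlap and a standard error of 0.26 on a difference of -0.10. Got1, the cytosolic aspartate aminotransferase, was below the floor on every array. The median of Got2 and Glud1 was -0.089, and it depended on single arrays: it was -0.18 when HSL-null array 1 was left out, -0.17 when Wildtype array 1 was, -0.0026 when Wildtype array 2 was and 0.0076 when HSL-null array 2 was.

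Branched-chain steps differed little between the genotypes. Of 6 genes, 1 was higher without overlap (16.7%), 0 were lower and 5 overlapped, and the median was 0.022. Over all probe sets 19.5% were higher and 21.1% lower, so that this count did not stand out. Bckdha, the catalytic alpha subunit of the branched-chain ketoacid dehydrogenase, measured 530 and 488 on the HSL-null arrays, against 475 and 484 on the Wildtype arrays (0.086 ± 0.061). The HSL-null duplicates lay farther apart than the nearest arrays of different genotype. Bckdhb, the beta subunit, measured 393 and 388 in HSL-null, against 395 and 385 in Wildtype (0.0019 ± 0.021). Bckdk, the kinase that inactivates the complex, measured 701 and 675 in HSL-null, against 691.5 and 681 in Wildtype (0.0034 ± 0.030). For Bckdhb both HSL-null values lay between the Wildtype duplicates, and for Bckdk both Wildtype values lay between the HSL-null duplicates. The small standard errors bound the array error of these pools, not the variation between animals.

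Dbt, the acyl-transferring core of the complex, measured 112 and 134 in HSL-null and 113 and 119 in Wildtype, so that HSL-null array 2 alone stood out. Bcat2, the mitochondrial branched-chain aminotransferase that starts the pathway, measured 251 and 254 in HSL-null and 274 and 247 in Wildtype, with overlap. Ivd, the isovaleryl-CoA dehydrogenase of leucine breakdown, measured 303 and 312 in HSL-null and 295.5 and 303 in Wildtype. It was higher without overlap under median centring, quantile normalization and cyclic loess, but overlapped with the values as deposited (0.040 ± 0.029). The group median was 0.0093 without HSL-null array 1 and between 0.015 and 0.026 when each of the others was left out, 0.037 with median centring and 0.033 with cyclic loess.

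Of 3 propionyl and valine genes above the filter, 0 were higher without overlap and 1 was lower, too few to set against the shares over all probe sets. Pccb, the beta subunit of propionyl-CoA carboxylase, measured 115 and 114 on the HSL-null arrays, against 118 and 132 on the Wildtype arrays. It was lower by 0.12 ± 0.082 on the log2 scale, and the groups overlapped with median centring and with quantile normalization. Mut, the methylmalonyl-CoA mutase that forms succinyl-CoA, measured 193 and 221.5 in HSL-null and 209 and 183 in Wildtype. Hibadh, a dehydrogenase of valine breakdown, measured 694 and 667 in HSL-null and 691 and 638.5 in Wildtype. Both overlapped, at 0.079 ± 0.14 and 0.035 ± 0.063. The group median of 0.035 became -0.022 when Wildtype array 2 was left out, -0.021 when HSL-null array 2 was, 0.0069 when HSL-null array 1 was and 0.092 when Wildtype array 1 was.

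Other genes of these pathways, listed by role, were read in the same way. Of 60 listed, 37 had a probe set and 30 passed the filter, of which 10 (33.3%) were higher without overlap, 3 (10%) lower and 17 overlapped, beside 19.5% higher and 21.1% lower over all probe sets. The counts by role below rest on 4 to 9 genes each and were not compared with that share. Their median was 0.032, and 0 differed by 1.2-fold without overlap. Of 5 other cycle genes, 2 were higher. These were Sdhd, an anchor subunit of succinate dehydrogenase (0.16 ± 0.040), and Sdhb, its iron-sulphur subunit (0.054 ± 0.037). The subunits Sdha and Sdhc overlapped. Of 4 genes of pyruvate control, 3 were higher and 0 lower. Pdk4, a kinase that inactivates pyruvate dehydrogenase when fat is the fuel, measured 2383 and 2393 on the HSL-null arrays, against 2198 and 2031 on the Wildtype arrays (0.18 ± 0.057). Ldha, the lactate dehydrogenase subunit common in fast fibres, was higher by 0.15 ± 0.045, and Pdk1, another kinase of the complex, by 0.029 ± 0.014. These genes, and Slc25a1, Mccc1 and Slc3a2 below, were singled out after their values were seen.

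Among 4 genes that fill or drain the cycle, 1 was higher and 1 lower, and among 8 carriers and shuttle genes, 2 were higher and 1 lower. Slc25a1, the citrate carrier, was the lower of these carriers (-0.15 ± 0.052). Among 9 other branched-chain genes, 2 were higher and 1 lower. Mccc1, a subunit of the carboxylase in leucine breakdown, was higher (0.18 ± 0.096). Slc3a2, the heavy chain of a transporter for large neutral amino acids, was lower (-0.21 ± 0.046). The genes of these lists that differed by at least 1.2-fold without overlap all had means below the filter and lay outside these counts. Pck1 and Aco1 were close to the floor, so that no fold is given for them. Slc25a10, the mitochondrial dicarboxylate carrier, measured 10.4 and 10.7 on the HSL-null arrays, against 36.9 and 30 on the Wildtype arrays. It was separated, 3.15-fold lower in HSL-null (log2 difference -1.66 ± 0.15), with its HSL-null arrays below the level of the filter. These 2 arrays were about as close to the floor as those of Pck1 and Aco1, so that the size of the fold is uncertain. Its mean over all arrays was 22, and the shares of separated probe sets given above cover only those above the filter. Pck1, the cytosolic phosphoenolpyruvate carboxykinase, measured 8.8 and 11.8 in HSL-null, against 13.3 and 15.8 in Wildtype. Aco1, the cytosolic aconitase, was the higher one, at 14.6 and 16.3 in HSL-null, against 9.2 and 10 in Wildtype.

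Markers of muscle fibre types and of other cells were read beside these values. Over all probe sets 19.5% were higher without overlap and 21.1% lower. Among those with a mean of at least 1000, where all slow-fibre markers lie, these shares were 31.3% and 14%. The marker counts rest on few genes and were not tested against these shares. Of 9 fast-fibre markers, 4 were higher without overlap and 0 lower, and their summed intensity was 20749 and 20574 on the HSL-null arrays, against 17642 and 16078.5 on the Wildtype arrays. The 3 separated markers, Myh4 (1839 in HSL-null, 278 in Wildtype), Actn3 (1097 in HSL-null, 361 in Wildtype) and Pvalb (2227 in HSL-null, 1320.2 in Wildtype), carried most of that gap. Tnni2 was higher by a log2 difference of 0.076, and the other 5 overlapped, with Mylpf below 0. Of 7 slow-fibre markers, 3 were higher and 0 lower, with overlapping sums of 34547 and 33149 in HSL-null and 33585 and 31707 in Wildtype. Of 4 white adipocyte markers above the filter, 3 were lower and 0 higher, and the sum over the 6 on the array was 409 and 405 in HSL-null, against 556 and 542 in Wildtype. All 5 fibroblast markers were higher, with sums of 3756 and 3863 in HSL-null, against 3304 and 3268 in Wildtype. Of 5 endothelial markers 1 was lower, with sums of 668 and 684 in HSL-null, against 700.1 and 719 in Wildtype. Of 6 macrophage markers 1 was higher, with sums of 555 and 557 in HSL-null and 533 and 576 in Wildtype. Of the 4 brown adipocyte markers, 0 of the 2 above the filter were called, and Elovl3 was below the floor on every array. The sums were 1449 and 1383 in HSL-null and 1423 and 1345.5 in Wildtype. Cox7a1 alone gave 1363 and 1319 of these in HSL-null, and 1347 and 1273 in Wildtype. The sums therefore say little about the other brown adipocyte markers. No marker was listed at 0 on all arrays. The part of fibre type, of these other cells and of RNA quality in the pathway values was not tested.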

How the data were processed

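The authors deposited 1 table of linear intensities for 12488 probe sets on 4 arrays. Its values were already scaled, as tested on the values: the mean with 2% trimmed from each end was 100.1 on every array. Which software and background correction made them is not given in the sources used here. Gene names came from the platform annotation, updated by RefSeq gene ID (GRCm38.p6). Of 66 control probe sets, the 44 without a mouse gene symbol were left out.

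Intensities below 5.7, the 25th percentile, were set to that floor and all were transformed to log2. Probe sets with a mean of at least the median of all (27.7) were kept, 6217 in all. Arrays of a genotype are technical duplicates of 1 pool, so that no model was fitted and the call rules stand in for a test. Every listed gene is accounted for. Genes of the wider pathways were to be named where they differed by at least 1.2-fold without overlap. Others are said to have been singled out after their values were seen. The genes, lists and rules were chosen with earlier results of these data known. Precision is limited by the number of arrays. Alternatives covered scaling (limma 3.58.1 in R 4.3.3 for cyclic loess, with zeros set to 0.1), floor, filter, probe set, each array left out and the replicate number as a block. Tables were computed with numpy 2.4.6 and pandas 2.3.3 under Python 3.11.15.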

Additional observations from a re-analysis of the deposited data

How the results depend on the processing

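The limits are those of 4 arrays on 1 pool per genotype. Most differences here are close to the spread between duplicates, and dim probe sets near the floor carry little signal. Across the alternatives run, the genes higher without overlap numbered between 8 and 21, and 0 were separated at 1.3-fold, 1.5-fold or 2-fold. Leaving out single arrays gave 14 to 21 higher and 4 to 7 lower, with a median from 0.028 to 0.079. Fewer arrays make it easier not to overlap, and of all probe sets between 32.8% and 35.4% were then higher and between 35.3% and 36.5% lower. With single arrays left out, the medians ranged from 0.028 to 0.11 for pyruvate entry and from 0.0093 to 0.026 for branched-chain steps.

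Quantile normalization gave 11 higher and 3 lower, with 20.1% of all probe sets higher, and of the 18 pyruvate and cycle genes 9 were higher and 2 lower. Branched-chain medians were 0.037 with median centring, 0.036 with quantile normalization and 0.033 with cyclic loess. The pyruvate entry median was 0.13 with the filter at the 75th percentile, which drops Pcx. With the filter at a mean of 1000, added after seeing the data, 8 of 11 genes were higher and 0 lower. Of the 358 probe sets that pass this filter, 31.3% were higher and 14.0% lower. The difference of Pdhb reversed with quantile normalization (-0.00040); the cause was not tested. Of 432 differences of single genes under alternatives, 424 stayed within the spread of duplicates and 7 moved beyond it. Most of the 432 could not move beyond it. Changes of floor and filter and the replicate block left single differences unchanged or nearly so. Leaving out an array shifts a difference by no more than its standard error. The 424 are therefore no measure of robustness. The paired analysis, with the replicate number as a block, gave 16 higher and 3 lower, with 25.5% and 27.0% of all probe sets. Same-numbered arrays share only a number (correlation of their deviations -0.086).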
